A study of Mus musculus with 19 samples.

Results

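Claudins, cadherins and the other proteins that hold epithelial and endothelial cells together were measured by RNA-seq in whole obstructed kidneys. The genes were taken by symbol from the protein-coding rows of the count table: every claudin (Cldn) and every numbered cadherin (Cdh) apart from Cdh5, the zonula occludens scaffolds (Tjp), occludin (Ocln) with the other MARVEL proteins, and the junctional adhesion molecules F11r, Jam2 and Jam3. This gave 65 of 54532 genes, of which 33 were claudins, 22 cadherins, 4 MARVEL proteins, 3 scaffolds and 3 junctional adhesion molecules. The kidneys came from male mice on a C57BL/6J background, aged 8 to 9 weeks, whose left ureter had been tied and cut (unilateral ureteral obstruction, UUO) and whose kidney was taken on day 12. All 19 mice had the obstruction, so no unobstructed kidney enters these comparisons. WT mice received PBS (n = 5) or recombinant CD5L protein (rCD5L, n = 5), and CD5L knockout (CD5L KO) mice received PBS (n = 4) or rCD5L (n = 5). rCD5L was injected into the abdomen at 0.5 mg per mouse each day, and control mice received the same volume of PBS. CD5L is a secreted protein made mainly by macrophages that circulates in blood, and the study asked whether its loss or its administration altered the injured kidney. The knockout was present in the whole animal, so the labels do not tie a difference to one cell type.

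Tight junctions seal the space between neighbouring epithelial cells. Their strands are built of claudins, which set which ions and how much water pass between the cells, together with occludin and tricellulin (Marveld2), and the strands are anchored to actin by the zonula occludens scaffolds. Adherens junctions lie below them and are built of cadherins, whose cytoplasmic tails bind catenins. Each nephron segment uses its own claudins: Cldn2 and Cldn10 form pores in the proximal tubule, Cldn10, Cldn16 and Cldn19 carry cations in the thick ascending limb, and Cldn3, Cldn4, Cldn7 and Cldn8 line the distal nephron and collecting duct.

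The stretches before the start sites of 4 members are shown, of those whose start sites were in the table used: Cldn15 and Cdh6 were lower in CD5L KO kidneys, Tjp1 had the smallest p-value between genotypes under rCD5L, and Cldn2 was the claudin with the largest count and stood far apart in 1 kidney. No stretch is shown for Cdh13, the member with the smallest p-value under PBS, or for Cdh11, Cdh1 and Cdh16. They were taken from RefSeq start sites on GRCm38.p6 and run from 250 bases before the start to the start, except that the 25 bases of the Cldn15 stretch that belong to an annotated exon were left out. The Cldn15 and Tjp1 stretches lie inside the annotated genes, because a longer transcript of each starts further upstream, and those of Cdh6 and Cldn2 lie just outside. Capitals mark matches, on either strand, to an AP-1 site (TGANTCA), a GC box (GGGCGG) or a TATA box (TATAAA). An E-box of the form CACCTG and the HNF1 letters GTTAAT were also searched and are not among these letters. The motifs do not overlap each other, but the 2 GC boxes of Cdh6 overlap by a pair of bases.
Cldn15, chr5:136967619-136967843, plus strand: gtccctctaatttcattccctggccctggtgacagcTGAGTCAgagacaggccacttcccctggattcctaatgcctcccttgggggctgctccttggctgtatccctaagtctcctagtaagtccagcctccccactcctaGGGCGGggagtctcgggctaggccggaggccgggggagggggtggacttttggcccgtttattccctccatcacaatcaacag
Cdh6, chr15:13173676-13173925, minus strand: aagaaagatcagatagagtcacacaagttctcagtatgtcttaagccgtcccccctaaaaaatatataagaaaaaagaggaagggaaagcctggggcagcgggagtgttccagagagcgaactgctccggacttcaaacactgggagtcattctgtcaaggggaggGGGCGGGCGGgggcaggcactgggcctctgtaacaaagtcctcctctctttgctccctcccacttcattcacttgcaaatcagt
Tjp1, chr7:65371245-65371494, minus strand: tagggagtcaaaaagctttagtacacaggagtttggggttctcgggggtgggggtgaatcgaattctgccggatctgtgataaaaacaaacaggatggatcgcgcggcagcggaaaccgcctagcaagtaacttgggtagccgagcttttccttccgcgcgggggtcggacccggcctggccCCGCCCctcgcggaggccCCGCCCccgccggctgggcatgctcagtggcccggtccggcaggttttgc
Cldn2, chrX:139800558-139800807, plus strand: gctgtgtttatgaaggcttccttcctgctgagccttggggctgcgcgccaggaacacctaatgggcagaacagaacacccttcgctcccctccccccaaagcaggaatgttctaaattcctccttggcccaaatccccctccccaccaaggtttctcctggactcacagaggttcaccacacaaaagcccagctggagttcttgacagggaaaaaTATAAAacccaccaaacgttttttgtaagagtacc
The Cldn15 stretch held 1 AP-1 site and 1 GC box, the Cdh6 and Tjp1 stretches held 2 GC boxes each, and the Cldn2 stretch held 1 TATA box, 35 bases before the start. Among 32841 stretches of the same 250 bases, 6.75% held the AP-1 letters, 32.7% the GC box and 12.4% the TATA box. The E-box letters were in 17.2% and the HNF1 letters in 6.43%. Of the 65 members, 44 had a start site in this table, with 57 stretches between them. Of these, 42.1% held a GC box, 10.5% the AP-1 letters, 7.02% the TATA box, 19.3% the E-box letters and 12.3% the HNF1 letters.

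Each kidney had between 17917491 and 23847090 counts in all. Levels of a gene between kidneys are given as CPM, counts scaled to the same effective library size with TMM factors. For a count of 0 the upper 95% limit is about 3 counts, which were worth 0.120 to 0.220 CPM. These limits cover counting error only. Cd5l itself had 0 counts in every CD5L KO kidney, 5 to 13 counts in WT kidneys given PBS and 3 to 15 in WT kidneys given rCD5L. Replicate 4 of the rCD5L-treated CD5L KO group stood apart. Its summed level of 6 proximal tubule markers was 10337 CPM against at most 2022 CPM in any other kidney, and its summed level of 4 markers of injured proximal tubule was 617 CPM against at least 1539 CPM. Replicate 3 of the same group also stood apart, less far. The differences named for this group are therefore given with and without these kidneys, a choice made after the data were seen.

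Levels between genes are compared as FPKM, which corrects for gene length. Of the 65 members, 32 had a mean of at least 1 FPKM over the 19 kidneys and 20 a mean of at least 10 FPKM. The highest was Cdh16 (kidney-specific cadherin, found along the tubule) with 239 ± 27.6 FPKM (SD, n = 19). The claudins of the distal nephron followed with Cldn4 at 129.6 ± 21.9 FPKM, then Cldn2 of the proximal tubule at 105 ± 27.2 FPKM and Cldn3 at 67.1 ± 15.3 FPKM. E-cadherin (Cdh1), the general epithelial cadherin, had 61.2 ± 5.30 FPKM, and the junctional adhesion molecule F11r had 49.1 ± 4.95 FPKM. Cldn7, Cldn8 and Cldn1 had means of 45.2, 33.4 and 27.2 FPKM. The scaffolds Tjp1 and Tjp3 had 17.6 and 9.09 FPKM. N-cadherin (Cdh2), which joins proximal tubule cells, had only 1.23 ± 0.14 FPKM. The endothelial claudin Cldn5 had 17.3 ± 3.09 FPKM, and Cldn16, a cation channel of the thick ascending limb, had 10.9 ± 1.54 FPKM.

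**Figure D1:**
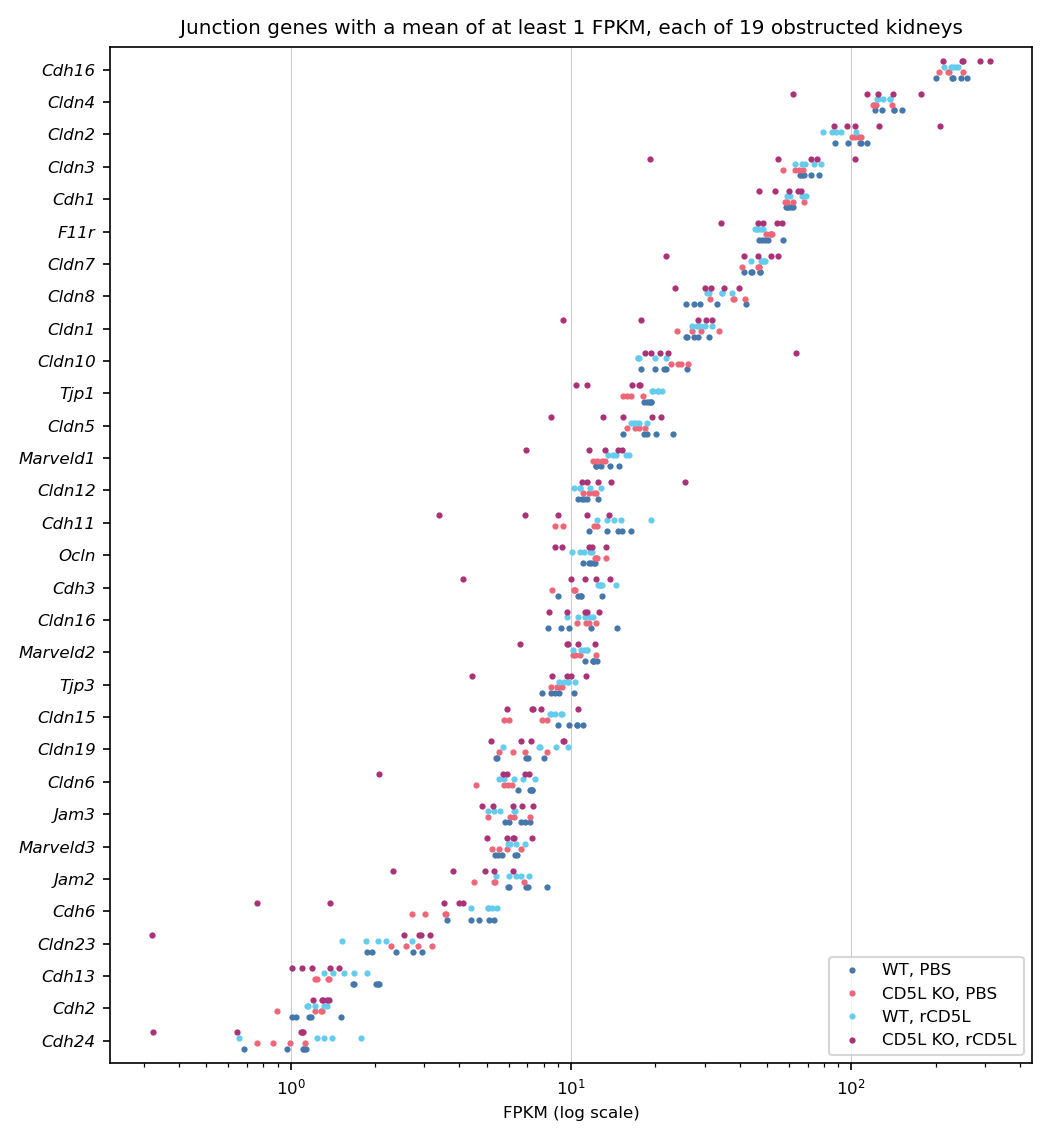
Level (FPKM, log scale) of 31 junction genes with a mean of at least 1 FPKM, one point for each of the 19 kidneys, with the 4 groups in separate colors and rows of points. The order runs from Cdh16 at 239 FPKM down to Cdh24 at 1.02 FPKM, and single points of CD5L KO kidneys given rCD5L lie far from the rest, such as Cldn10 at 63.6 FPKM.

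At the other end, 24 members had a mean under 0.1 FPKM, and 9 of these had 0 counts in every kidney. They were Cdh7, Cdh12, Cldn22 and 6 of the 10 members of the Cldn34 family, which lie on the X chromosome. Cldn17, described as an anion pore of the proximal tubule, had 21 counts in all and was seen in 10 of 19 kidneys. Among the cadherins, Cdh8 had 2 counts, Cdh9 had 9 and Cdh15 had 20 over all kidneys. At these depths such genes could not be compared between groups. Neighbours could differ widely in level. Cldn6 and Cldn9 lie 137 bases apart on chromosome 17, with means of 6.18 and 0.443 FPKM, and Cldn13 lies 29592 bases from Cldn4 on chromosome 5, with means of 0.0350 and 129.6 FPKM. Ocln and Marveld2, neighbours on chromosome 13 with a gap of 43238 bases, had nearly the same level, 11.6 and 10.9 FPKM. Other genes of the table overlap 26 members, among them Cdh13, Cdh11, Tjp1, Cldn10 and Cldn3. The sources used here do not give the strand setting of the counting, so the counts of these genes are less certain. The count of Cldn10 also joins its isoforms, which differ between segments.

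The first comparison asked what loss of CD5L did in obstructed kidneys that received PBS. A gene was called when the p-value of edgeR's quasi-likelihood test, adjusted over all tested genes by the Benjamini-Hochberg method, fell under 0.05. Cdh13, Cldn15 and Cdh6 were lower in CD5L KO kidneys, each by roughly 0.5 on the log2 scale. No member was called higher. The filter on low counts kept 40 of the 65 members, so the 3 called are 3 of 40, or 0 higher and 3 lower. Over all 17579 genes tested, 10.5% were called, 5.13% higher and 5.4% lower, so the share of members called was near that of all genes. The abundant epithelial genes Cdh1, Cdh16, Cldn2 and Cldn4 were not called in this comparison.

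Cdh13 (T-cadherin, ENSMUSG00000031841, chromosome 8 from 118283733 to 119324921) is a cadherin without a cytoplasmic tail that binds adiponectin and is known from endothelium and vascular smooth muscle. It measured 27.5, 28.7, 22.9, 28.1 and 23.2 CPM in the 5 WT kidneys and 17.2, 18.99, 16.9 and 18.9 CPM in the 4 CD5L KO kidneys. Every CD5L KO kidney was below every WT kidney, and the groups did not overlap. The mean was 18.03 ± 1.10 CPM (SD, n = 4) against 26.1 ± 2.80 CPM (n = 5), a log2 fold change of -0.54 ± 0.089 (SE) with edgeR's adjusted p = 0.00618.

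Cldn15 (ENSMUSG00000001739, chromosome 5 from 136966616 to 136975858), a cation pore best known from the intestine, measured 23.2, 27.4, 25.5, 28.4 and 27.4 CPM in WT kidneys. In CD5L KO kidneys it measured 15.1, 21.6, 20.7 and 15.8 CPM, again below every WT kidney. The log2 fold change was -0.53 ± 0.112 (SE, edgeR's adjusted p = 0.0128). Cldn15 was the claudin with the largest difference of those above 1 FPKM, at a mean of 8.51 FPKM over all kidneys.

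Cdh6 (K-cadherin, ENSMUSG00000039385, chromosome 15 from 13028701 to 13173675), a type II cadherin of the developing nephron and of proximal tubule cells, measured 51.4, 56.8, 40.0, 58.4 and 48.6 CPM in WT kidneys. The 4 CD5L KO kidneys had 39.9, 39.7, 30.2 and 33.6 CPM. The highest of these lay just under the lowest WT value, so the separation was narrow. The log2 fold change was -0.51 ± 0.116 (SE, edgeR's adjusted p = 0.0171). Without replicate 4 of the CD5L KO kidneys given PBS it was -0.48 with an adjusted p of 0.0502, and over all other alternatives run the adjusted p of Cdh6 lay between 0.00062 and 0.0466, except 0.597 when all 19 kidneys shared 1 fit.

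**Figure D2:**
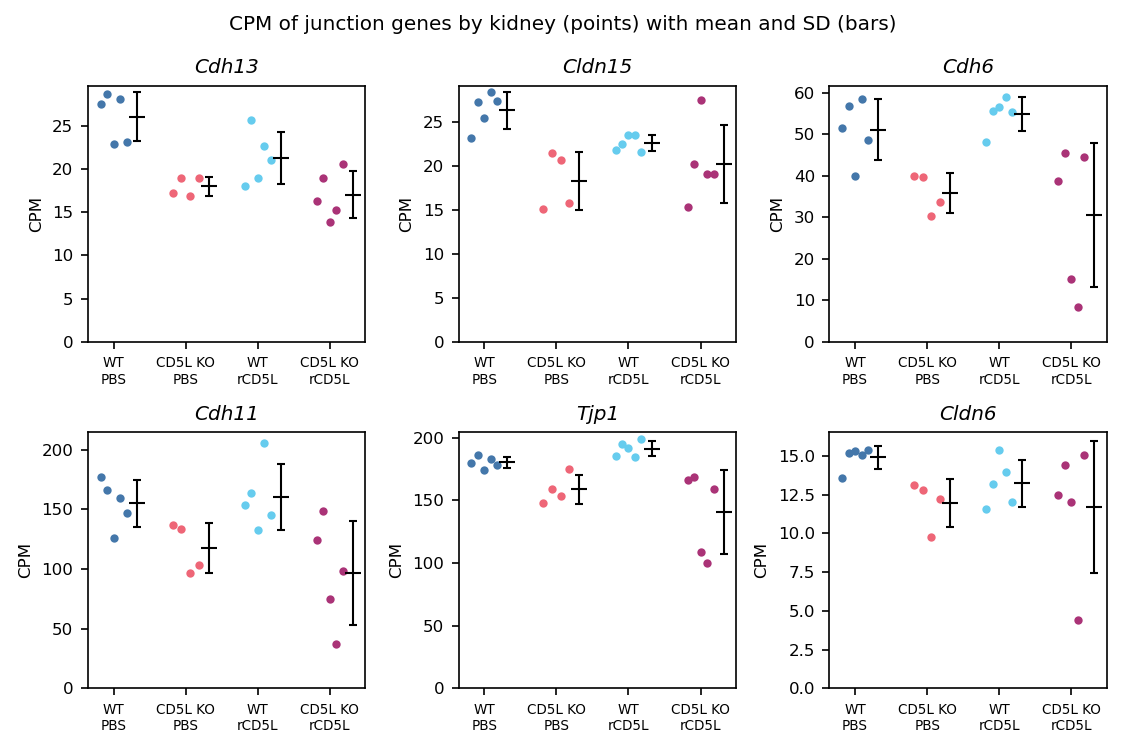
CPM (linear axis from 0) of Cdh13, Cldn15, Cdh6, Cdh11, Tjp1 and Cldn6 in each kidney of the 4 groups, with the mean and SD beside the points. Under PBS, the CD5L KO points of Cdh13, Cldn15, Cdh6 and Cldn6 all lie under the WT points, and 2 of the CD5L KO kidneys given rCD5L fall far below the others for Cdh6, at 15.2 and 8.50 CPM.

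The next members by p-value were also lower in CD5L KO kidneys on average, without passing the adjusted threshold. Cdh11 (OB-cadherin), the cadherin of fibroblasts and other mesenchymal cells, measured 177, 166, 126, 159 and 147 CPM in WT and 137, 134, 96.5 and 103 CPM in CD5L KO kidneys. These ranges overlapped, and the log2 fold change was -0.40 ± 0.121 (SE, edgeR's adjusted p = 0.053). The scaffold Tjp1 (ZO-1) measured 159 ± 11.6 CPM without CD5L and 180.4 ± 4.62 CPM with it, with a log2 fold change of -0.19 ± 0.057 (SE, adjusted p = 0.0533). Cldn6, a claudin of embryonic epithelia, was at 13.1, 12.8, 9.74 and 12.2 CPM in CD5L KO kidneys, all below the 13.6 to 15.4 CPM of WT kidneys. Its log2 fold change was -0.32 ± 0.099 (SE, adjusted p = 0.0586). Jam2, an adhesion molecule of endothelium, had a log2 fold change of -0.30 ± 0.119 (SE, adjusted p = 0.129). Among all 40 members tested, 8 had an unadjusted p-value under 0.05, as had 26.6% of all genes. The groups did not overlap for 4 members in the lower direction (6.84% of all genes) and for 1 member in the higher direction (7.26% of all genes, 14.1% in either). The latter was Ocln, at 63.5 to 69.5 CPM in CD5L KO and 57.5 to 62.9 CPM in WT kidneys, with a log2 fold change of 0.11 ± 0.051 (SE, adjusted p = 0.205).

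By class, 11 of 12 cadherins tested had a fitted log2 fold change below 0 in CD5L KO kidneys and 1, Cdh1, above 0, with a median of -0.11. For Cdh2 the fit was close to 0 and the mean CPM was 11.7 in both groups. The 4 type II cadherins tested were all on the lower side, with a median of -0.28 and 1 of 4 called, where 5.4% of all genes were called lower. The 18 claudins tested were mixed, 11 higher and 7 lower, with a median of 0.04. The median over all genes tested was -0.005. The 4 claudins of the thick ascending limb (Cldn10, Cldn14, Cldn16 and Cldn19) had fitted differences above 0 with 0 called. The 4 markers of that segment leaned the other way, with 3 of 4 below 0, a median of -0.24 and 0 called, and their sums overlapped (1834 to 2833 CPM against 1730 to 3452 CPM). Of the regulators Casr, Wnk1, Wnk4 and Klhl3, 3 of 4 were below 0, each with an unadjusted p-value under 0.05, as had 26.6% of all genes. Cldn10 measured 78.4 ± 4.69 CPM in CD5L KO and 67.7 ± 9.52 CPM in WT kidneys, a difference of 0.21 ± 0.091 on the log2 scale (SE, adjusted p = 0.168). Of the 4 distal claudins, Cldn8, a barrier claudin of the collecting duct, differed by 0.25 ± 0.129 (adjusted p = 0.231) and Cldn3 by -0.13 ± 0.063 (adjusted p = 0.202).

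Several abundant epithelial members, and Cdh3 and Cldn5 at lower levels, showed small fitted differences with intervals that spanned 0. Cdh16 measured 1057 ± 88.2 CPM in CD5L KO and 1080.5 ± 101 CPM in WT kidneys, with a log2 fold change of -0.04 and a 95% interval from -0.23 to 0.15. For Cdh1 the difference was 0.05 (-0.08 to 0.18), for Cldn2 0.04 (-0.14 to 0.21) and for Cldn4 -0.12 (-0.29 to 0.06). P-cadherin (Cdh3) differed by -0.13 (-0.35 to 0.09), and Cldn5 of the endothelium by -0.15 (-0.38 to 0.09). These tests did not find a difference, and the intervals leave room for changes of the sizes given.

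**Figure D3:**
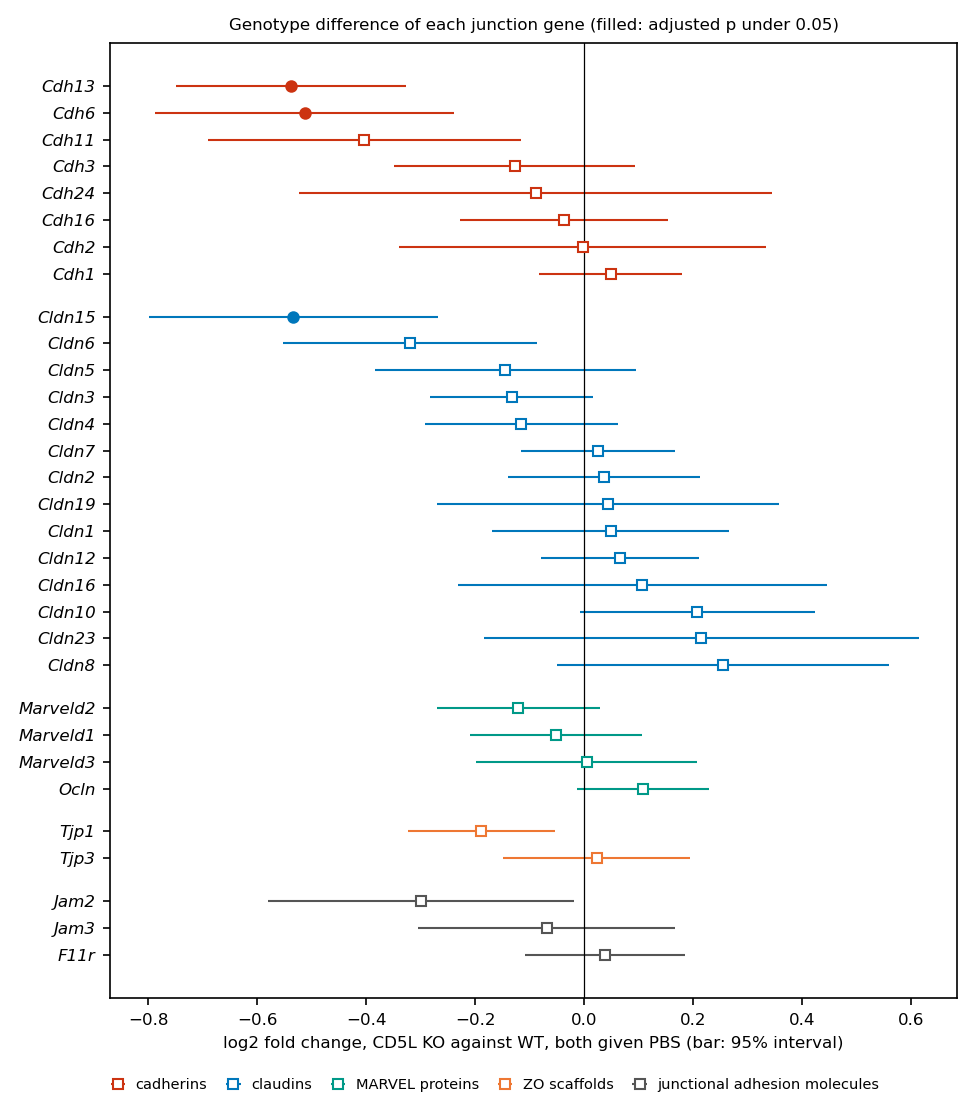
Log2 fold change between CD5L KO (n = 4) and WT (n = 5) kidneys given PBS for 31 members with a mean of at least 1 FPKM, colored by class, with 95% intervals; filled symbols mark an adjusted p-value under 0.05. Cdh13, Cldn15 and Cdh6 are the 3 filled symbols, all left of 0, while the intervals of Cdh1, Cdh16 and Cldn2 span 0.

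Genes that work with these proteins were counted from lists of partners. Their shares called are to be read against 10.5% of all genes, 5.13% higher and 5.4% lower. Of 11 adherens junction partners, 3 were lower in CD5L KO kidneys and 0 higher. They were vinculin (Vcl), which ties cadherin complexes to actin, with a log2 fold change of -0.64 ± 0.085 (SE, adjusted p = 0.0047), p120-catenin (Ctnnd1, -0.24, adjusted p = 0.0425) and afadin (Afdn, -0.20, adjusted p = 0.0495). Of 19 tight junction partners, 2 were lower and 1 higher. The endothelial adhesion molecule Esam was lower by -0.52 ± 0.115 (adjusted p = 0.0159), and cingulin (Cgn), a cytoplasmic plaque protein, by -0.31 ± 0.072 (adjusted p = 0.0194). The polarity protein Crb3 was higher by 0.27 ± 0.077 (adjusted p = 0.0445). Of 8 desmosome genes, Perp was higher by 0.25 ± 0.053 (adjusted p = 0.012) and the other 7 were not called. Vcl was called under all 17 alternatives run, Esam under 16, Perp under 15 and Cgn under 14, but Crb3 under 6 and Ctnnd1 and Afdn under 4 each. Leaving out 1 kidney ended the call of Ctnnd1 in 8 of 9 cases (all but CD5L KO replicate 2), of Afdn in 7 (all but WT replicates 1 and 3) and of Crb3 in 7 (all but WT replicates 3 and 4). Cgn had an adjusted p of 0.0552 without CD5L KO replicate 2 and of 0.0501 without WT replicate 4. Of the 4 regulators of thick limb transport and the 5 transcription factors of epithelial-to-mesenchymal transition, 0 were called in either direction, with smallest adjusted p-values of 0.0551 and 0.332.

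Markers of some other cell types differed with genotype as well. The summed level of 4 endothelial markers (Pecam1, Cdh5, Kdr and Emcn) was 362 to 422 CPM in PBS-treated CD5L KO kidneys against 449 to 516 CPM in WT, and 5 fibroblast and myofibroblast markers summed to 2233 to 3027 CPM against 3230 to 4949 CPM. Neither pair of ranges overlapped, and no marker of either list was at 0. Of the endothelial markers 2 of 4 were called lower, and of the fibroblast markers 4 of 5, against 5.4% of all genes. The 6 proximal tubule markers summed to 893 to 1619 CPM against 998 to 2022 CPM and overlapped. The 4 urothelial markers summed to 145 to 252 CPM against 18.9 to 139 CPM and did not, by a narrow gap. All 4 urothelial markers were above 0, 1 with an unadjusted p-value under 0.05 and 0 called. Of 3 macrophage markers 1, Csf1r, was called lower (-0.47 on the log2 scale, edgeR's adjusted p = 0.0386). In this list 1 of 3 was above 0, and the median was -0.02. The macrophage sums overlapped, at 1082 to 1849 CPM (median 1526 CPM) in CD5L KO and 1168 to 1574 CPM (median 1377 CPM) in WT kidneys. The 4 injured proximal tubule markers all had fitted differences above 0 (median 0.18) and 3 podocyte markers all below 0 (median -0.16), with 0 called in either list. The part of these markers in the differences of Cdh13, Cdh11, Esam, Jam2 and the other members was not tested, and in bulk tissue fewer cells of a type cannot be told apart from less RNA per cell. Gene length moved with genotype too. Over all genes tested, Spearman's rho between gene length and log2 fold change was -0.28 (a description across 17579 genes), and the claudins tested were short (median 2036 bases) where the cadherins were long (median 5915.5 bases; all genes 3808 bases). With an offset for gene length, 9 claudins were higher and 9 lower, 3 cadherins were higher and 9 lower, and 5 members were called lower. These were Cdh13, Cdh6, Cldn15, Cldn6 and Cldn3. Over all genes, 1305 were called with this offset and 1850 without it. When all 19 kidneys shared 1 fit, 0 members and 12 genes of all were called. The biological coefficient of variation, the spread between kidneys of a group, was 12.6% in the fit of these 2 groups and 22.1% in the fit of all 4. Without WT replicate 3, 7 members were called, among them Cldn10 and Cldn8 as higher, and 2062 genes of all were called.

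The next comparison asked whether rCD5L changed these genes in CD5L KO mice. None of the 41 members tested was called, and none had an unadjusted p-value under 0.05. Of all 17467 genes tested by edgeR, 0% were called at an adjusted p-value under 0.05 and 2.87% had an unadjusted p-value under 0.05; DESeq2 called 3 genes, of which 0 were members. The groups did not overlap for 0 of the 41 members, against 2.34% of all genes (0.99% higher and 1.35% lower). The 5 members with the smallest p-values were Ocln (log2 fold change -0.19 ± 0.133, SE), Cldn12 (0.35 ± 0.249), Cdh16 (0.23 ± 0.162), Cldn8 (-0.22 ± 0.162) and Jam2 (-0.29 ± 0.242), each with an adjusted p of 0.897. The summed level of 6 epididymis markers, genes of a tissue outside the kidney, was 23.3 to 59.0 CPM with rCD5L and 7.87 to 21.3 CPM with PBS, without overlap. Of these markers 4 were tested, all with fitted differences above 0, 3 with an unadjusted p-value under 0.05 and 0 called, and 1 of the 6 was at 0 in every kidney of either group. Their part in the members' values was not tested. The treated kidneys also differed more among themselves. Over 36 members with a mean of at least 1 CPM, the median coefficient of variation was 28.0% in this group, against 9.00% in CD5L KO given PBS, 9.8% in WT given PBS and 7.62% in WT given rCD5L. Without replicate 4 it was 16.0%.

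Replicate 4 stood furthest from the other kidneys. Of the 36 members, it was above all 18 other kidneys for 5 and below all of them for 22. Over 15686 genes of at least 1 CPM, 26.1% were above and 30.8% below. The members above were Cldn10, Cldn12, Cldn2, Cdh16 and Jam3. Cldn2 measured 853 CPM there, against 391, 419, 351 and 514 CPM in the other treated CD5L KO kidneys and at most 514 CPM in any other kidney. Cldn10, whose count joins isoforms of the proximal tubule and the thick ascending limb, measured 204 CPM against 54.2 to 84.4 CPM in the remaining 18 kidneys. Cdh16 measured 1469 CPM against 933 to 1337 CPM elsewhere. The members below included Cldn1, Cldn3 and Cldn4 at 56.3, 29.7 and 139.8 CPM, where the lowest other kidneys had 105, 84.0 and 253 CPM. Cdh6 was at 8.50 CPM and Cdh11 at 37.2 CPM, with log2 ratios of -2.39 and -1.74 to the median of replicates 1, 2 and 5. Markers of several cell types were as far apart in this kidney. Beside the proximal tubule, 4 thick ascending limb markers summed to 5444 CPM (at most 3452 CPM in any other kidney) and 3 distal convoluted tubule markers to 660 CPM (at most 399 CPM). The fibroblast markers summed to 1096 CPM (at least 2209 CPM elsewhere) and 3 macrophage markers to 386 CPM (at least 1082 CPM). Cdh6, a cadherin of proximal tubule cells, was lowest in the kidney where the proximal tubule markers were highest and the injured proximal tubule markers lowest. The part of these markers in the members' values was not tested.

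Replicate 3 shared some of these low values and differed in others. For 9 of the 36 members, replicates 3 and 4 were both below the other 17 kidneys (12.4% of all genes), and for 1, Cdh16, both above (12.6% of all genes). The 9 were Cdh1, Cdh6, Cdh11, Cdh13, Cdh24, Cldn1, Jam2, Ocln and Tjp1. Cdh6 measured 15.2 CPM and Cdh11 74.7 CPM in replicate 3. Taken alone, with replicate 4 among the other 18, replicate 3 was above all other kidneys for 7 of the 36 members (20.2% of all genes) and below for 2 (21.1% of all genes). Those above included Cldn14, Cldn3, Cldn4, Cldn7, Tjp3 and Marveld3, with Cldn3 at 158 CPM and Cldn4 at 393 CPM, and those below were Cldn8 and Cdh13. For Cldn3 and Cldn4, the highest and the lowest of all 19 kidneys were thus both in this group.

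**Figure D4:**
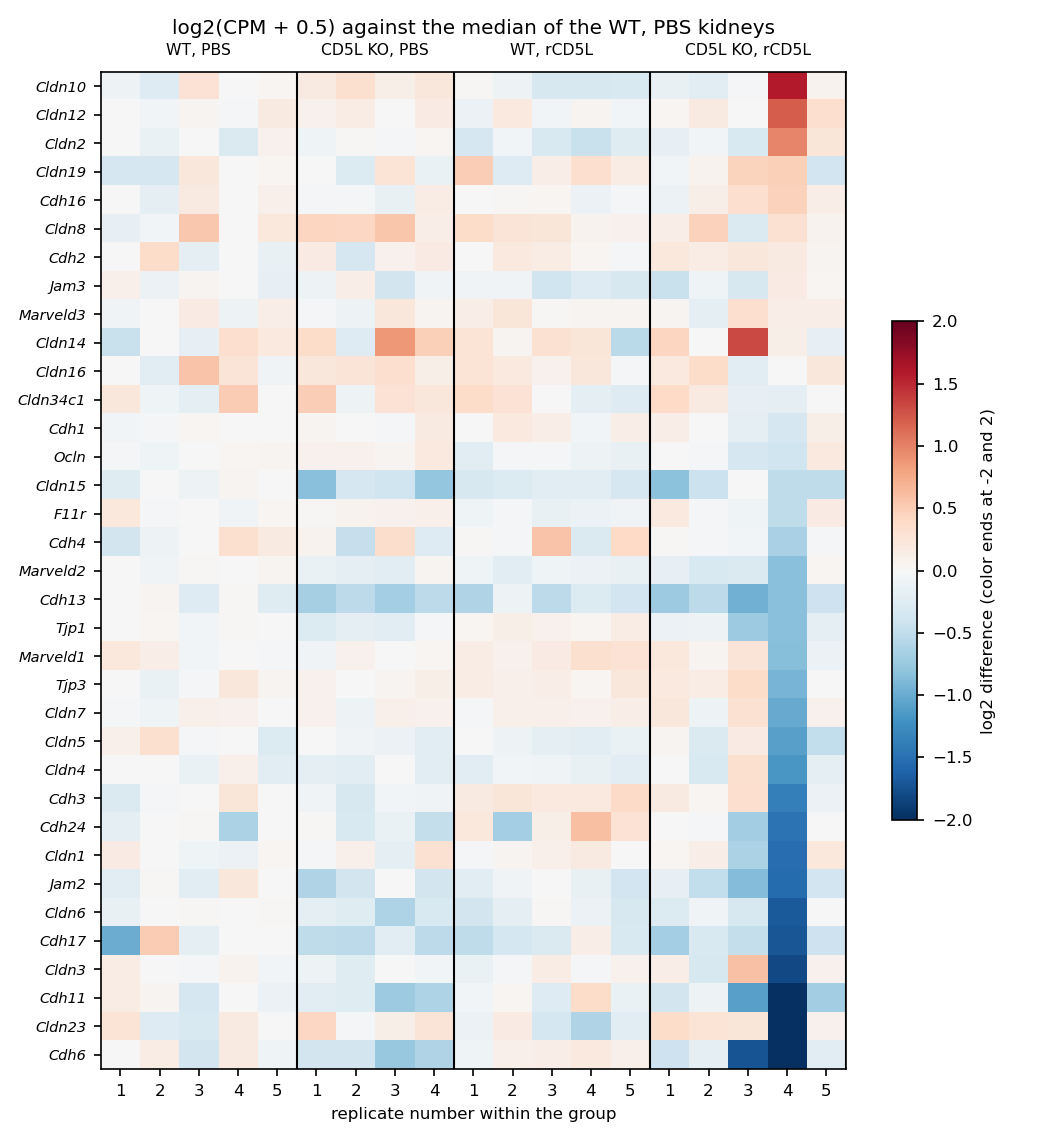
Log2(CPM + 0.5) of 35 members in each of the 19 kidneys, as the difference from the median of the WT kidneys given PBS (red higher, blue lower, color ends at -2 and 2), with rows ordered by replicate 4 of the CD5L KO kidneys given rCD5L. That kidney runs from dark red at Cldn10 to dark blue at Cdh6, and replicate 3 beside it is also low for Cdh6 and Cdh11 but high for Cldn3 and Cldn4.

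Leaving out replicate 4 changed directions in this comparison. The log2 fold change of Cldn10 went from 0.25 ± 0.367 to -0.28 ± 0.099 (unadjusted p = 0.0162, adjusted p = 0.763), that of Cldn2 from 0.25 ± 0.256 to -0.03 ± 0.122 and that of Cdh6 from -0.22 to 0.01. Cldn12 went from 0.35 to 0.05. Of the 41 members, 14 were on the higher and 27 on the lower side with all kidneys, and 22 and 19 without replicate 4, when the median standard error fell from 0.242 to 0.143. The count called stayed at 0. Without both replicates 3 and 4 it was also 0, with 2 members at an unadjusted p-value under 0.05 (Cldn10 and Cdh6). Of the members with the smallest p-values above, Ocln went to -0.13 without replicate 4 and to -0.04 without replicates 3 and 4, Jam2 to -0.13 and -0.01, Cdh16 to 0.15 and 0.07, Cldn12 to 0.05 and 0.09, and Cldn8 to -0.26 and -0.15. Cdh13 and Cldn15, lower in CD5L KO under PBS, were at -0.07 (95% interval -0.40 to 0.26) and 0.16 (-0.28 to 0.60) with all kidneys, at -0.04 and 0.18 without replicate 4, and at 0.05 and 0.00 without replicates 3 and 4. Cdh1 was at -0.08 with all kidneys, -0.02 without replicate 4 and 0.04 without both. Cldn2 was also at 0.04 without both.

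In WT mice, the question was what rCD5L added to endogenous CD5L. None of the 41 members tested was called and 0% of the 17455 genes were, while 9 members had an unadjusted p-value under 0.05, as had 16% of all genes. DESeq2 called 508 genes, of which 0 were members. Cdh3 (P-cadherin) had the smallest p-value. It measured 47.8, 57.3, 58.4, 69.0 and 58.5 CPM with PBS and 66.4, 69.1, 66.6, 66.8 and 76.6 CPM with rCD5L, which overlapped through 1 control kidney. The log2 fold change was 0.26 ± 0.078 (SE, edgeR's adjusted p = 0.137). Cldn15 measured 21.6 to 23.6 CPM with rCD5L and 23.2 to 28.4 CPM with PBS, a log2 fold change of -0.21 ± 0.067 (adjusted p = 0.161). Cdh13 had -0.28 ± 0.099 (adjusted p = 0.187). The endothelial markers had lower sums with rCD5L as well, 407.5 to 448.7 CPM against 448.6 to 515.9 CPM, and 3 of 4 had an unadjusted p-value under 0.05, all lower, with 0 called. Their part in the value of Cdh13 was not tested. The 6 proximal tubule markers all had fitted differences below 0 with rCD5L, with a median of -0.30, 2 of them with an unadjusted p-value under 0.05 and 0 called, and their sums overlapped (880 to 1355 CPM against 998 to 2022 CPM). Their part in the values of Cldn2 and Cldn10 was not tested. The epididymis markers leaned the same way as in CD5L KO mice, with 4 of 4 tested above 0, 3 with an unadjusted p-value under 0.05 and 0 called, and their sums overlapped (15.8 to 38.9 CPM against 11.9 to 24.3 CPM). Their part was not tested either. Cldn2 had -0.20 ± 0.080 (adjusted p = 0.244), Jam3 -0.19 ± 0.082 (adjusted p = 0.284) and tricellulin, Marveld2, -0.12 ± 0.050 (adjusted p = 0.262). Marveld2 was the 1 member whose groups did not overlap, at 41.9 to 46.75 CPM with rCD5L and 46.82 to 51.3 CPM with PBS, where 2.11% of all genes were separated in that direction, 1.47% in the other and 3.58% in either. The nearest kidneys of the groups were thus almost equal. Marveld1 (0.16 ± 0.065, adjusted p = 0.237) and Tjp1 (0.10 ± 0.043, adjusted p = 0.271) had higher means. Here the fitted log2 fold change was above 0 for 10 of 13 cadherins, with a median of 0.12. Over all genes tested the median was 0.005. Gene length moved with rCD5L here, with Spearman's rho of 0.24 between length and log2 fold change (a description across 17455 genes), and with an offset for gene length the cadherin median was 0.08, with 10 of 13 still above 0. E-cadherin differed by 0.10 (95% interval -0.02 to 0.22), Cdh6 by 0.12, Cldn10 by -0.19 (-0.40 to 0.03) and Cldn4 by -0.07. The PBS kidneys of WT mice serve as controls here and in the comparison of genotypes above, so the lower values of Cldn15 and Cdh13 in both rest in part on the same 5 kidneys.

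**Figure D5:**
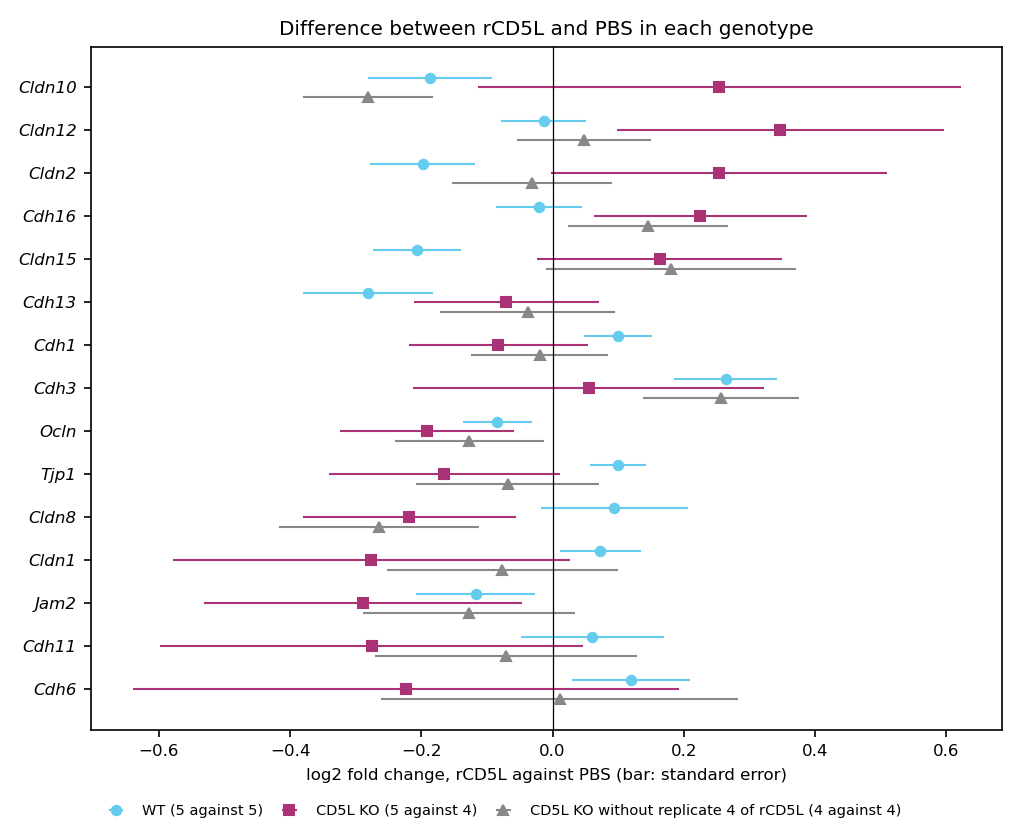
Log2 fold change between rCD5L and PBS with its standard error for 15 members, in WT mice (circles), in CD5L KO mice (squares) and in CD5L KO mice without replicate 4 of the treated group (triangles). The squares of Cldn10, Cldn12 and Cldn2 lie at 0.25, 0.35 and 0.25, and the triangles at -0.28, 0.05 and -0.03.

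Between genotypes under rCD5L, 0 of 41 members were called and 0% of 17360 genes, and 5 members had an unadjusted p-value under 0.05 (17.8% of all genes), each with a lower mean in CD5L KO kidneys. DESeq2 called 64 genes, of which 0 were members. Tjp1 measured 167, 169, 108, 100.4 and 159 CPM in CD5L KO and 185, 195, 192, 185 and 199 CPM in WT kidneys. All CD5L KO kidneys were below all WT kidneys, and the log2 fold change was -0.45 ± 0.154 (SE, edgeR's adjusted p = 0.259). Cdh6 measured 38.7, 45.5, 15.2, 8.50 and 44.5 CPM against 48.2 to 59.1 CPM, also without overlap (-0.85 ± 0.371, adjusted p = 0.269), where 3.09% of all genes were separated in that direction, 4.29% in the other and 7.38% in either. Cdh11 had -0.74 ± 0.292 (adjusted p = 0.259), Cdh13 -0.32 ± 0.140 (adjusted p = 0.269) and Jam2 -0.47 ± 0.209 (adjusted p = 0.275). The 4 endothelial markers summed to 343 to 392 CPM in CD5L KO against 408 to 449 CPM in WT, without overlap, and 2 of 4 had an unadjusted p-value under 0.05, both lower. The 5 fibroblast markers all had fitted differences below 0, 3 with an unadjusted p-value under 0.05, and the 6 proximal tubule markers all had differences above 0, 4 with such a p-value. The fibroblast sums overlapped, at 1096 to 4219 CPM in CD5L KO (2209 to 4219 CPM without replicate 4) and 3380 to 4641 CPM in WT kidneys. The proximal tubule sums were 1124 to 10337 CPM in CD5L KO and 880 to 1355 CPM in WT kidneys, and without replicate 4 the CD5L KO sums were 1124 to 1858 CPM. Of these 15 markers 0 were called, and their part in the members' differences was not tested. Other lists leaned too, with 0 called. Podocyte (3 of 3) and macrophage (3 of 3) markers were below 0. Thick ascending limb (4 of 4), principal cell (4 of 4) and intercalated cell (3 of 3) markers were above 0. The part of these lists was not tested either. Cldn2 and Cldn10 had higher means, by 0.49 ± 0.234 and 0.65 ± 0.336 (adjusted p = 0.291 and 0.318), and without replicate 4 the differences were 0.20 and 0.11. Cldn15 differed by -0.16 and Cdh1 by -0.13. Without replicate 4, Cdh11 was at -0.54, Jam2 at -0.31, Cdh13 at -0.30, Tjp1 at -0.36, Cdh6 at -0.62, Cldn15 at -0.15 and Cdh1 at -0.07. Without replicates 3 and 4, Cdh11 was at -0.38, Jam2 at -0.19, Cdh13 at -0.20, Cldn15 at -0.32, Cdh1 at -0.01, Cldn2 at 0.28 and Cldn10 at 0.10. Without replicates 3 and 4 of the CD5L KO kidneys, Tjp1 and Cdh6 were called, by -0.23 on the log2 scale (adjusted p = 0.0444) for Tjp1 and by -0.37 (adjusted p = 0.0326) for Cdh6, among 644 genes of all. Which kidneys to leave out was decided after the data were seen.

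Whether rCD5L acted differently in the 2 genotypes was tested as the interaction. None of the 41 members tested was called, as was none of the 18454 genes tested (0%) by edgeR or DESeq2, and 0 members had an unadjusted p-value under 0.05, against 6.25% of all genes. Cldn15 had the smallest p-value, with a log2 difference of 0.39 ± 0.192 (SE, CD5L KO minus WT, unadjusted p = 0.057, edgeR's adjusted p = 0.731). It was followed by Cldn2 (0.47 ± 0.266), Cdh16 (0.27 ± 0.159), Tjp1 (-0.25 ± 0.167) and Cldn12 (0.38 ± 0.258). For Cdh13, the difference was 0.23 (95% interval -0.13 to 0.58), and for Cdh3 it was -0.19. The effects of rCD5L on these genes are therefore not shown to differ between CD5L KO and WT mice. The 6 proximal tubule markers all had interaction differences above 0, with a median of 1.48, 5 with an unadjusted p-value under 0.05 and 0 called. Replicate 4, which had the highest sum of these markers (10337 CPM), is part of this fit. The part of these markers in the values of Cldn2 and Cdh16 was not tested. Without replicate 4, the interaction was 0.17 for Cldn2, 0.06 for Cldn12, 0.16 for Cdh16, -0.16 for Tjp1, 0.38 for Cldn15, 0.24 for Cdh13 and -0.01 for Cdh3. Without replicates 3 and 4 it was 0.25, 0.11, 0.09, -0.03, 0.22, 0.34 and -0.08 in the same order. Cldn6 then had the smallest p-value of the members, with an unadjusted p of 0.0419 without replicate 4 and 0.0175 without both, and Cdh13 had 0.0382 without both. The count called stayed at 0, with adjusted p-values of 0.853 and 0.965 for Cldn6.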

How the data were processed

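Whole-kidney RNA-seq libraries of 19 mice were primed with random hexamers and sequenced from both ends by a service company. Per the paper's methods and the submitters' processing notes, trimming was done with Trimmomatic, alignment with HISAT2 against GRCm38 (mm10) and gene counting with featureCounts, before the authors' own tests in DESeq2. Versions, strand setting and the handling of multi-mapped reads are not given in the sources used here. The authors deposited raw gene counts and FPKM values, in which counts are divided by gene length and library size. Each column was matched to its sample by library name; 0 sample columns were left over.

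The counts entered edgeR 4.0.16 under R 4.3.3. TMM factors were used, filterByExpr removed low genes (minimum count 10), and glmQLFit with glmQLFTest was run on the groups compared, and on all 4 groups for the interaction. P-values were adjusted over the whole table by the Benjamini-Hochberg method and genes under 0.05 were called. Standard errors are the fold change divided by the root of the F statistic, and 95% intervals used the residual degrees of freedom. The labels give each kidney as a biological replicate. Named were every called member, the 5 members with the smallest p-value in each comparison, and members from a list of known renal junction genes, with at most 6 called partner genes per comparison by p-value. Afdn, the seventh partner called, is named beyond this rule, as are the members near 0 counts, after their values were seen. One member is counted but not reported here by name. Members and lists were chosen with earlier results of these data known.

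Member counts and the log2 differences of named members and partners were recomputed with DESeq2 1.42.0, with RLE factors, without the filter, with all 19 kidneys fitted together, with a block for replicate number, without each replicate in turn, with limma 3.58.1 on log2(FPKM + 1) or log2(FPKM + 0.1) for genes with a mean of at least 0.1 FPKM, and with a lowess offset for gene length (span 0.3). Leaving out replicates 3 and 4 of the CD5L KO mice given rCD5L was added after the data were seen, as were the alternatives for partners. Marker values have no alternatives. Simulated counts with 200 changed genes served to check the scripts.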

Additional observations from a re-analysis of the deposited data

Results flagged for a closer look

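For the members whose levels are described, each group's highest and lowest kidney was set against the others by Dixon's test at 95%, and 9 of 116 groups had a value that stood apart; chance alone gives about 1 in 20. Of these, 3 belonged to replicate 4 of the rCD5L-treated CD5L KO group. There, Cldn10 at 204 CPM and Cldn12 at 133 CPM stood above the other 4 kidneys of the group, and Cldn6 at 4.40 CPM stood below them. The other 6 were spread over 5 kidneys. In CD5L KO mice given PBS, replicate 2 was low for Cdh3 (46.6 CPM) and Cldn7 (98.6 CPM), and replicate 3 was high for Cldn4 (315 CPM). In WT mice given PBS, replicate 1 was low for Cldn6 (13.6 CPM). In WT mice given rCD5L, replicate 5 was high for Cdh3 (76.6 CPM) and replicate 1 low for Cldn7 (104 CPM).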

How the results depend on the processing

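For CD5L KO against WT under PBS, the 3 members called became 6 with DESeq2 (with Cdh11, Cldn6 and Tjp1 added), 5 with FPKM at a pseudocount of 1 or 0.1 and 5 with the gene length offset, and 0 when all 19 kidneys shared 1 fit. In that fit Cdh13, Cldn15 and Cdh6 had adjusted p-values of 0.0765, 0.124 and 0.597. Leaving out 1 kidney gave 3 to 7 members, the 7 without WT replicate 3, when Cldn10 and Cldn8 were called higher. Over all genes, the 1850 calls became 2570 with DESeq2, 1364 and 1387 with FPKM, 1305 with the length offset and 12 with all kidneys, and 1015 (WT replicate 4 left out) to 2062 (WT replicate 3) without 1 kidney. The cause was not tested. The other settings left 3 or 4 members called. On the log2(FPKM + 1) scale, Cdh13 changed by -0.33, since the pseudocount is close to its level.

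The replicate numbers did not meet the criterion for pairing, a correlation over 0.1 in every pair. For CD5L KO against WT under PBS 2 of 4 pairs did, for rCD5L in CD5L KO 3 of 4 (0.0520 to 0.369), and 4 of 8 kidneys correlated best with their own number in each. In the other 2 comparisons 0 of 5 pairs did. With the replicate block, 4 members (Cdh11 added) and 2132 genes were called for CD5L KO against WT under PBS, and 0 members in each other comparison.

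For rCD5L in CD5L KO, rCD5L in WT and the interaction, 0 members were called under every setting run. Over all genes, rCD5L in WT gave 0 calls but 508 with DESeq2, 137 without the filter and 39 without PBS replicate 1, and rCD5L in CD5L KO gave 3 with DESeq2. Between genotypes under rCD5L, 1 member (Tjp1) was called with all 19 kidneys in 1 fit, and 2 without replicates 3 and 4; leaving out 1 kidney gave 0. Of all genes, these fits called 1291 and 644, and DESeq2 64. Directions changed for uncalled members only. For rCD5L in CD5L KO, leaving out replicates 3 and 4 gave 0.04 for Cdh1, 0.05 for Cdh13, 0.26 for Cdh6 and -0.30 for Cldn10, and leaving out 1 kidney gave -0.41 to 0.01 for Cdh6, -0.28 to 0.38 for Cldn10 and -0.03 to 0.36 for Cldn2. For genotype under PBS, it gave -0.09 to 0.01 for Cdh16 and -0.02 to 0.07 for Cldn2. Of 1182 alternatives for 63 named differences, 7 of them of partner genes, 21 gained a call, 47 lost one, 10 turned and the rest kept direction and call.

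Depth limits the 24 members under 0.1 FPKM, and the spread within the CD5L KO mice given rCD5L limits all comparisons with that group.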
